A study of Mus musculus with 9 samples.

Results

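The enzymes that build heparan sulfate chains and place the first sulfate groups on them were examined in mouse brain. The list held 10 genes by symbol: the polymerase and polymerase-like genes Ext1, Ext2, Extl1, Extl2 and Extl3, the N-deacetylase/N-sulfotransferase genes Ndst1, Ndst2, Ndst3 and Ndst4, and the epimerase gene Glce. Of these, 8 carried a probe set in the platform annotation used here, among 19505 genes with one. Ndst1 and Glce had no named probe set and are given no value. Probe sets were to be chosen by the highest mean log2 signal over the 9 arrays where a gene had several. Each of the 8 genes had 1, so that no measured value decided between probe sets. The list itself was chosen with earlier results of these data known. In ob/ob brain, Extl2 fell below its wild-type level, and in ob/ob brain after the plant extract VE, Ndst4 fell below its wild-type level. The other 6 genes had no adjusted p under 0.05 in the main fit. Ext1 did with array weights, in VE against ob/ob vehicle (limma adjusted p 0.0313).

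Clariom S arrays were run on brain RNA of male mice, with 3 arrays in each of 3 groups. The groups were C57BL/6JHamSlc-ob/ob mice treated with VE at 100 mg/kg, C57BL/6JHamSlc-ob/ob mice given vehicle, and C57BL/6JHamSlc-+/+ (wild-type) mice given vehicle. VE is an extract of Vigna umbellata, the rice bean, and ob/ob mice are obese because both copies of their leptin gene carry a loss-of-function mutation. All 3 groups were 6 weeks old before a week of acclimatization, received their gavage for 42 days and ate standard chow, so that the 2 ob/ob groups differ by VE alone and the VE and wild-type groups differ by genotype and VE together. The labels name brain without a region and do not say whether RNA of several animals was pooled, and the p-values measure the spread between arrays, which may in part be technical. The series' design text speaks of white adipose tissue. In these arrays the neuronal genes Snap25 and Syt1 and the myelin gene Mbp had mean log2 signals of 17.73, 18.58 and 17.58, and the adipocyte genes Adipoq, Plin1, Fabp4, Cidec and Pparg had 5.73, 4.33, 5.98, 5.66 and 6.76.

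Heparan sulfate is a long sugar chain of alternating glucuronic acid and N-acetylglucosamine that is built in the Golgi on core proteins such as syndecans and glypicans. The chain is begun on a short linker that chondroitin sulfate shares, lengthened by the Ext1 and Ext2 complex, and then modified by N-deacetylation and N-sulfation, epimerization and O-sulfation. The pattern of sulfate groups sets which growth factors and adhesion proteins bind the chain, and in brain it is known for its part in axon guidance and synapse formation.

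One array differed from the rest over all probe sets. VE array 2 correlated with the other arrays at r = 0.962 to 0.970, while those 8 correlated with each other at 0.979 to 0.993, and its brightest signal was 16.37, against 19.01 to 19.93. Results for the enzymes are therefore given below with and without this array where it moves them. Signals are log2 values as deposited, a change is the difference of 2 group means on that scale, and a gene is said to rise or fall if limma's p, adjusted over all 22206 probe sets, was under 0.05. Signals of different probe sets carry their own brightness and are not ranked against each other.

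Extl2, which adds N-acetylglucosamine to the phosphorylated linker and can thereby stop a chain before it is built, was the one enzyme gene that fell in ob/ob brain. Its signals were 9.67, 9.63 and 9.45 in the 3 ob/ob vehicle arrays, against 10.85, 10.69 and 10.73 in the wild-type arrays. The lowest wild-type array lay above the highest ob/ob array, and the SDs within the groups were 0.117 in ob/ob vehicle and 0.083 in wild type. The change was -1.17 (SE 0.192, 95% interval -1.59 to -0.76, n = 3 per group), a 2.26-fold lower signal with a limma adjusted p of 0.0257. Of all probe sets, 0.73% fell in this comparison and 1.27% passed in either direction. The call ended when any single ob/ob vehicle or wild-type array was left out (adjusted p 0.0561 to 0.169, change -1.22 to -1.11), and it was kept without VE array 2 (adjusted p 0.00212). After quantile normalization and cyclic loess the change was smaller, at -0.97 and -0.93, and the call was kept (limma adjusted p 0.0126 and 0.0102). Probe sets within 0.5 log2 units of the mean signal of Extl2, 1588 in number, had a median change of -0.26.

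In VE-treated ob/ob brain Extl2 stood at 10.63, 10.26 and 10.51, against the 9.67, 9.63 and 9.45 of ob/ob vehicle brain. All 3 VE arrays were higher than all 3 ob/ob vehicle arrays and lower than all 3 wild-type arrays, with VE array 2 the lowest of its group. The change against ob/ob vehicle was 0.88 (SE 0.192, 95% interval 0.47 to 1.30), which did not pass over all arrays (limma adjusted p 0.0638). Without VE array 2 it was 0.99 and passed (adjusted p 0.0181), and it also passed after quantile normalization at 0.94 (adjusted p 0.0192) and after cyclic loess at 0.89 (adjusted p 0.0179). Without any ob/ob vehicle array in turn it did not pass (adjusted p 0.124, 0.182 and 0.263). Nor did it pass without VE array 1 or 3 (adjusted p 0.114 and 0.111). It also failed in a fit of the 2 compared groups alone (adjusted p 0.217) and over 1-symbol probe sets (adjusted p 0.107). Against wild type the change in VE brain was -0.29 (SE 0.192, 95% interval -0.70 to 0.12, limma adjusted p 0.55), an interval that holds both 0 and -0.70. It was -0.03 after quantile normalization and -0.04 after cyclic loess. The comparisons with ob/ob vehicle share those 3 arrays, so that a low or high ob/ob vehicle mean moves both at once.

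**Figure D1:**
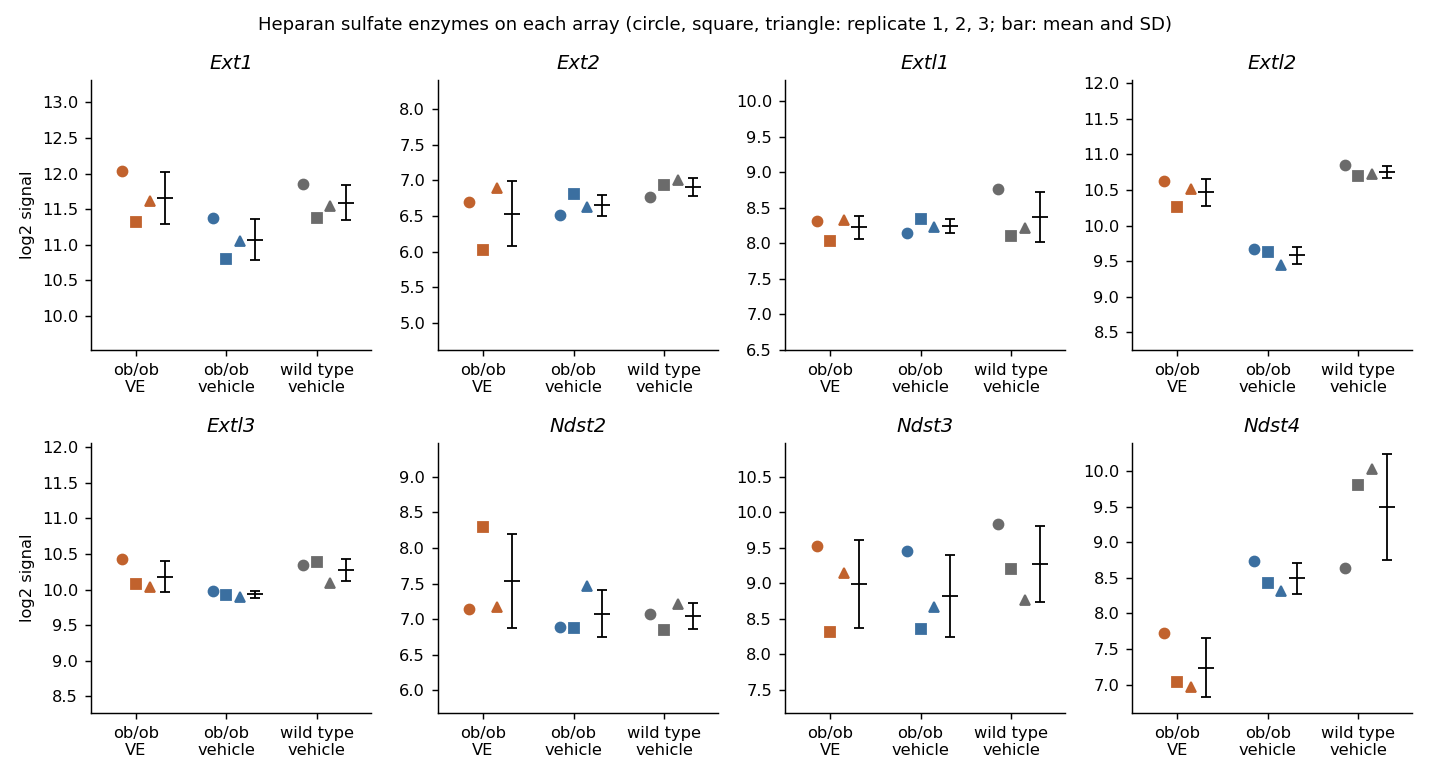
Log2 signal of the 8 enzyme genes on each of the 9 arrays, by group, with the mean and SD of 3 arrays beside the points; every vertical axis spans the same number of log2 units. Extl2 is lowest in the 3 ob/ob vehicle arrays (9.45 to 9.67), Ndst4 is lowest in the 3 VE arrays (6.96 to 7.72), and Ndst2 has 1 high value of 8.30 on VE array 2.

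The start-site windows of Extl2 are shown because it is the enzyme gene whose level differed between the vehicle groups. RefSeq's table on GRCm38.p6 gives 2 start sites on the plus strand of chromosome 3, each with 250 bases before and 50 after the start. Capitals mark GGGCGG, the GC box bound by Sp1-type factors, searched on both strands together with TATAAA and CCAAT.
Extl2 upstream start, chr3:116007199-116007498: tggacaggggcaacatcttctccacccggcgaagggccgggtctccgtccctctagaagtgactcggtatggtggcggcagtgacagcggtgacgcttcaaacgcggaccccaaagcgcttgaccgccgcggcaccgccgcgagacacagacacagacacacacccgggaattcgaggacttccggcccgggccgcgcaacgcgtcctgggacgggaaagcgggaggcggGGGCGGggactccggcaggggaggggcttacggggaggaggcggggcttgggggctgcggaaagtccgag
Extl2 downstream start, chr3:116008047-116008346: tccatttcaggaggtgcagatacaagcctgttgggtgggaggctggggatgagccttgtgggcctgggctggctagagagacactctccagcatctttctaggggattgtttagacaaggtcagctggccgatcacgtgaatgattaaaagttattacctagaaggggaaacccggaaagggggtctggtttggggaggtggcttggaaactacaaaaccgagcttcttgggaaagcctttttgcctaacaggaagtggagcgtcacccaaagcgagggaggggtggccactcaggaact
The upstream window holds 34 CpG dinucleotides and 1 GC box, and the downstream window 6 CpG and 0 GC boxes. Over 32851 such windows the median is 7 CpG, 35.7% hold GGGCGG, 13.6% hold TATAAA and 37.4% hold CCAAT. Neither Extl2 window holds TATAAA or CCAAT. The table had an entry for 5 of the 8 genes. Among the others with one, the windows of Ndst2, Ext2 and Extl1 hold 20, 18 and 9 CpG, and those of the brain-enriched Ndst3 hold 3 and 1. The array does not tell transcripts of the 2 Extl2 starts apart.

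Ext1, a subunit of the chain polymerase, had signals of 12.04, 11.32 and 11.61 in VE brain, 11.37, 10.80 and 11.05 in ob/ob vehicle brain and 11.86, 11.38 and 11.54 in wild-type brain. The highest ob/ob vehicle array lay just under the lowest wild-type array, the VE and ob/ob vehicle ranges overlapped, and replicate 1 was the highest array in each group. The change was -0.52 in ob/ob vehicle against wild type (SE 0.243, limma adjusted p 0.252). With VE it was 0.58 relative to ob/ob vehicle (limma adjusted p 0.315, SE 0.243), and neither passed. VE against wild type was at 0.06 (95% interval -0.46 to 0.59). Scaling moved these values: after quantile normalization and cyclic loess Ext1 was at -0.26 and -0.23 in ob/ob vehicle against wild type, and at 0.37 and 0.36 in VE against wild type. Without VE array 2 the changes in VE were 0.75 relative to ob/ob vehicle (limma adjusted p 0.102) and 0.23 relative to wild type. With array weights the change relative to ob/ob vehicle was 0.59 and passed (limma adjusted p 0.0313).

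Ext2, the partner of Ext1 that is needed for the complex to work and to reach the Golgi, stood at 6.69, 6.02 and 6.89 in VE brain, 6.52, 6.81 and 6.62 in ob/ob vehicle brain and 6.76, 6.94 and 7.01 in wild-type brain. The groups overlapped in all 3 comparisons, and VE array 2 held the lowest of the 9 values. Its change in VE against ob/ob vehicle was -0.12 (SE 0.237), and 0.14 without that array.

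Extl3, which adds the first N-acetylglucosamine of a heparan sulfate chain to the linker, lay within a narrow range: 10.43, 10.08 and 10.04 in VE brain, 9.98, 9.93 and 9.89 in ob/ob vehicle brain and 10.35, 10.39 and 10.10 in wild-type brain. The ob/ob vehicle arrays were the 3 lowest of the 9. The changes were small beside their error, at -0.35 in ob/ob vehicle against wild type (SE 0.196, limma adjusted p 0.339) and 0.25 with VE relative to ob/ob vehicle (limma adjusted p 0.624, SE 0.196). The value of -0.35 for Extl3 was -0.15 after quantile normalization and -0.11 after cyclic loess. Extl1, a related transferase that can add N-acetylglucosamine to a growing chain in biochemical assays, had 8.31, 8.03 and 8.33 in VE brain, 8.15, 8.34 and 8.23 in ob/ob vehicle brain and 8.77, 8.11 and 8.22 in wild-type brain. The 3 groups overlapped throughout, and the 95% intervals of its changes lay between -0.61 and 0.45.

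Ndst4, an N-deacetylase/N-sulfotransferase that in mice is found mainly in brain and has weak deacetylase but strong sulfotransferase activity, had the largest difference of the 8 genes. Its signals were 7.72, 7.04 and 6.96 in VE brain and 8.64, 9.80 and 10.03 in wild-type brain. Every VE array was below every wild-type array, and wild-type array 1 stood apart from the other wild-type arrays (SD 0.745), near the ob/ob vehicle arrays at 8.74, 8.43 and 8.32. The change in VE against wild type was -2.25 (SE 0.333, 95% interval -2.97 to -1.53, n = 3 per group), a 4.76-fold lower signal with a limma adjusted p of 0.0429. In this comparison 0.0991% of all probe sets passed, all of them lower. Probe sets within 0.5 log2 units of the mean signal of Ndst4, 2427 in number, had a median change of -0.17.

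The fall of Ndst4 kept its size but not always its call. Without VE array 2 it was -2.15 (adjusted p 0.0128) and without wild-type array 1 -2.67 (adjusted p 0.00385). The call ended without VE array 3 (-2.11, adjusted p 0.191), without wild-type array 2 or 3 (-2.10 and -1.98, adjusted p 0.269 and 0.278) and without ob/ob vehicle array 1, 2 or 3 (adjusted p 0.0859, 0.113 and 0.118), whose loss leaves the change itself as it was. It also ended in a fit of the VE and wild-type arrays alone (-2.25, adjusted p 0.255), after quantile normalization (-2.09, adjusted p 0.166) and after cyclic loess (-2.09, adjusted p 0.08).

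The 2 steps that make up this difference did not pass alone. In VE brain relative to ob/ob vehicle brain Ndst4 was at -1.26 (SE 0.333, 95% interval -1.97 to -0.54, limma adjusted p 0.105), with every VE array below every ob/ob vehicle array. In ob/ob vehicle against wild type it was at -0.99 (SE 0.333, limma adjusted p 0.132), with wild-type array 1 inside the ob/ob vehicle range. Without VE array 2, which is in neither of these groups, this second change kept its value and passed (adjusted p 0.0403). Over all probe sets 13.4% then passed in this comparison, beside 1.27% with all arrays. The cause of that shift was not tested.

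Ndst3, the other N-sulfotransferase gene found mainly in mouse brain, had signals of 9.52, 8.31 and 9.15 in VE brain, 9.46, 8.35 and 8.66 in ob/ob vehicle brain and 9.83, 9.20 and 8.77 in wild-type brain. Arrays within a group differed by more than the groups did, and replicate 1 was the highest in each group. Ndst3 was at -0.44 in ob/ob vehicle against wild type (SE 0.365, limma adjusted p 0.518). VE brain was at 0.17 relative to ob/ob vehicle and at -0.27 relative to wild type (limma adjusted p 0.887 and 0.784), and without VE array 2 at 0.51 and 0.07.

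Ndst2, an N-sulfotransferase that in mice is needed for heparin in mast cells and is expressed in many tissues, stood at 7.14, 8.30 and 7.17 in VE brain, 6.89, 6.88 and 7.46 in ob/ob vehicle brain and 7.07, 6.85 and 7.22 in wild-type brain. Apart from VE array 2, the 8 values lay between 6.85 and 7.46. Its change in VE against ob/ob vehicle, 0.46 (limma adjusted p 0.548, SE 0.301), became 0.08 without VE array 2, and its change against wild type, 0.49, became 0.11.

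**Figure D2:**
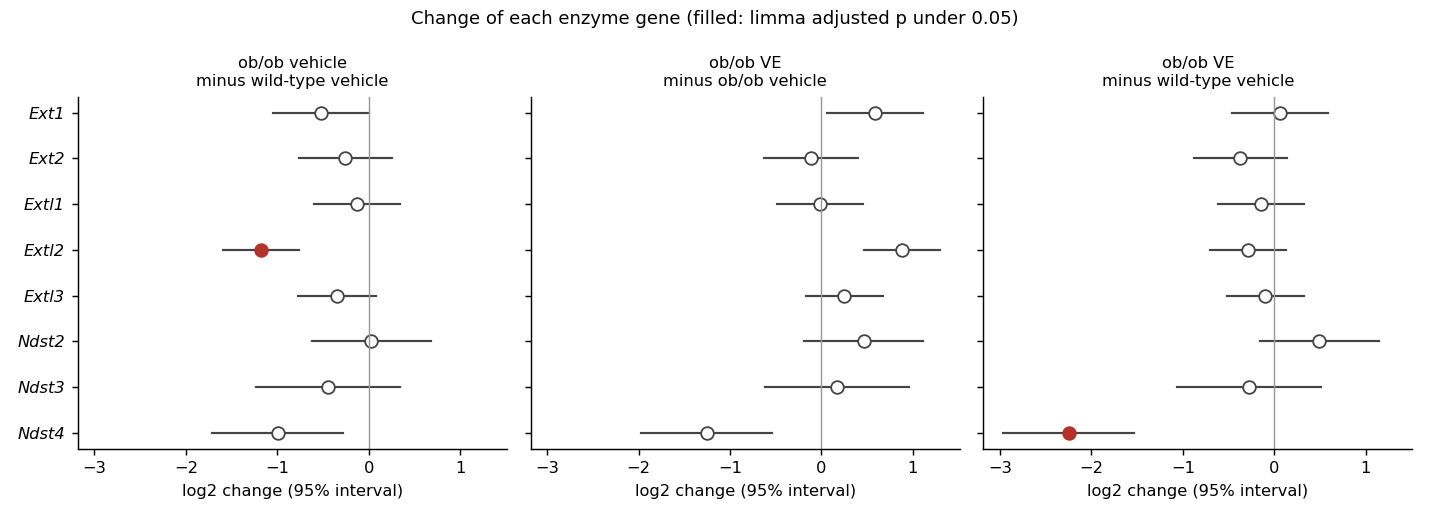
Log2 change of each enzyme gene in the 3 comparisons, with the 95% interval of the limma fit; filled points had an adjusted p under 0.05. Extl2 at -1.17 in ob/ob vehicle against wild type and Ndst4 at -2.25 in VE against wild type are the filled points, and the intervals of Ext2, Extl1, Extl3, Ndst2 and Ndst3 cover 0 in all 3 comparisons.

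Counted together, 1 of the 8 genes fell and 0 rose in ob/ob vehicle against wild type, beside 0.73% and 0.536% of all probe sets. The enzyme genes were chosen with earlier results of these data known, so the counts beside these shares are no independent test of the pathway. For VE relative to ob/ob vehicle 0 of 8 passed with limma, beside 0.486% of all probe sets (0.0135% higher and 0.473% lower), and 3 of 8 (Ext1, Extl2 and Ndst4) had an unadjusted p under 0.05, beside 13.3%. For VE relative to wild type 1 of 8 fell, beside 0.0991%. Without VE array 2 the counts were 2 of 8, 1 of 8 and 1 of 8 in the 3 comparisons in this order, beside 13.4%, 1.81% and 0.329% of all probe sets. At an adjusted p under 0.1 they were 1, 1 and 1, beside 5.42%, 1.95% and 0.491%. By the rule in the series' design text, an unadjusted p under 0.05 with a fold over 1.1, they were 2, 3 and 1, beside 20.1%, 13.3% and 12.2%.

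Groups that did not overlap were common over all probe sets. Between ob/ob vehicle and wild type they were found for 3 enzyme genes, all lower (Ext1, Extl2 and Extl3), beside 33.3% of all probe sets, 17.5% lower and 15.8% higher. Between VE and ob/ob vehicle they were found for 2 higher genes (Extl2 and Extl3) and 1 lower gene (Ndst4), beside 16.5% of all probe sets, 4.62% higher and 11.9% lower. Between VE and wild type they were found for 2 lower genes (Extl2 and Ndst4), beside 16.8% of all probe sets, 11.5% lower and 5.34% higher.

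The median change of the 8 genes was -0.40 in ob/ob vehicle against wild type, where the median over all probe sets was 0.02. That median depends on signal level: probe sets within 0.5 log2 units of Ext1, Extl2, Extl3 and Ndst3 had medians of -0.31, -0.26, -0.25 and -0.20, and those near Ext2 and Ndst2 had 0.15 and 0.08. With VE it was 0.21 relative to ob/ob vehicle and -0.21 relative to wild type, where the medians over all probe sets were both -0.07. The share of higher calls over all probe sets depends on scaling. For ob/ob vehicle and wild type it was 42.3% as deposited, 60.4% after quantile normalization, 60.0% after cyclic loess and 27.0% with arrays centred on their medians. For VE and ob/ob vehicle it was 2.78% as deposited, 18.5% after quantile normalization, 17.3% after cyclic loess and 12.7% after centring. Centring also moved the median over all probe sets there, which was 0.06 with it and -0.07 as deposited, and the change of Extl2 was then 1.01 (adjusted p 0.0444).

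Of 70 further genes of the pathway and its neighbours, 67 had a probe set. Over all 9 arrays 2 passed, both lower in ob/ob vehicle than in wild type. Sdc4, the gene of syndecan-4, a transmembrane core protein that carries heparan sulfate, had 10.30, 9.99 and 10.04 in ob/ob vehicle brain, against 11.54, 11.52 and 11.29 in wild-type brain. Its groups did not overlap, and it fell by 1.34 (SE 0.233, limma adjusted p 0.0307). In VE brain Sdc4 stood at 10.89, 10.16 and 10.90, a change of 0.54 from ob/ob vehicle that did not pass (SE 0.233, limma adjusted p 0.333). Chpf, which polymerizes chondroitin sulfate together with its partner enzymes, had 9.34, 9.33 and 9.07 in ob/ob vehicle brain, against 10.22, 10.25 and 10.19 in wild-type brain. It fell by 0.97 (SE 0.198, limma adjusted p 0.0401). Both calls ended when any single ob/ob vehicle or wild-type array was left out, and that of Chpf also without VE array 3 (adjusted p up to 0.177 for Sdc4 and 0.203 for Chpf). For VE, 0 of 67 passed with limma relative to ob/ob vehicle and 0 of 67 relative to wild type. An unadjusted p under 0.05 was found for 13 of 67 in ob/ob vehicle against wild type, beside 20.1% of all probe sets. With VE it was found for 6 of 67 relative to ob/ob vehicle and 13 of 67 relative to wild type, beside 13.3% and 12.2%.

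By role, the lists of the pathway gave mostly values that did not pass. Over all probe sets, 20.1% had an unadjusted p under 0.05 in ob/ob vehicle against wild type. The shares were 13.3% in VE against ob/ob vehicle and 12.2% in VE against wild type. In VE against wild type 2 O-sulfotransferase genes and 2 sulfatase genes were also under 0.05 unadjusted. Of 11 O-sulfotransferase genes, 0 passed in any comparison (2 at an unadjusted p under 0.05 in ob/ob vehicle against wild type): Hs2st1, which sulfates the uronic acid, was at -0.99 (SE 0.345) and Hs3st1, of 3-O-sulfation, at -0.52 (SE 0.189) there, with limma adjusted p of 0.142 and 0.156. Hs6st3, a brain 6-O-sulfotransferase gene, was at -0.60 in VE relative to ob/ob vehicle (SE 0.221, limma adjusted p 0.25). Of the 4 sulfatase and heparanase genes 0 passed (2 at an unadjusted p under 0.05 in ob/ob vehicle against wild type), and the 6-O-sulfatase genes Sulf2 and Sulf1 were at -0.74 (SE 0.196) and -0.99 (SE 0.318) in that comparison, with limma adjusted p of 0.0745 and 0.119.

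Of 13 core protein genes, Sdc4 was the one that passed. Sdc1 and Gpc1, named after their values were seen, were at 0.76 (SE 0.215, limma adjusted p 0.086) and -0.86 (SE 0.219, limma adjusted p 0.0678) in ob/ob vehicle against wild type. The syndecan genes Sdc2 and Sdc3, also named after their values were seen, were at -0.47 (SE 0.234) and -0.65 (SE 0.227) there. Their limma adjusted p were 0.276 and 0.143, and Sdc1 alone had the opposite sign to the other syndecan genes. Gpc3, of a glypican, was at 0.86 in VE relative to ob/ob vehicle (SE 0.259, limma adjusted p 0.158), with 6.24, 7.11 and 6.12 in VE brain, all above the 5.56, 5.80 and 5.53 of ob/ob vehicle brain. The highest value is that of VE array 2, and without it the change of Gpc3 was 0.55. Of 7 linker genes 0 passed. In ob/ob vehicle against wild type 1 had an unadjusted p under 0.05, beside 20.1% of all probe sets. This was B3gat3, which adds the last sugar of the linker, at -0.52 (SE 0.202, limma adjusted p 0.175). Xylt1, another linker gene, had the opposite sign there, at 0.30 (SE 0.197, limma adjusted p 0.413). In VE relative to ob/ob vehicle Xylt1 was at -0.42 (SE 0.197, limma adjusted p 0.386). Of 7 lysosomal genes that break the chains down 0 passed. In ob/ob vehicle against wild type 2 had an unadjusted p under 0.05, beside 20.1% of all probe sets. These were Hgsnat at -0.66 (SE 0.225, limma adjusted p 0.136) and Ids at -0.75 (SE 0.347, limma adjusted p 0.248). Without VE array 2 both kept their values and passed (limma adjusted p 0.0349 and 0.0247), beside 13.4% of all probe sets. Of 10 genes for sulfate and sugar donors 0 passed, and Ugp2, which makes UDP-glucose, was at -0.62 in VE against wild type (SE 0.240, limma adjusted p 0.33). Of 15 chondroitin enzyme genes Chpf was the one that passed, and the uronyl sulfotransferase gene Ust was at -0.71 in VE against wild type (SE 0.237, limma adjusted p 0.256).

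**Figure D3:**
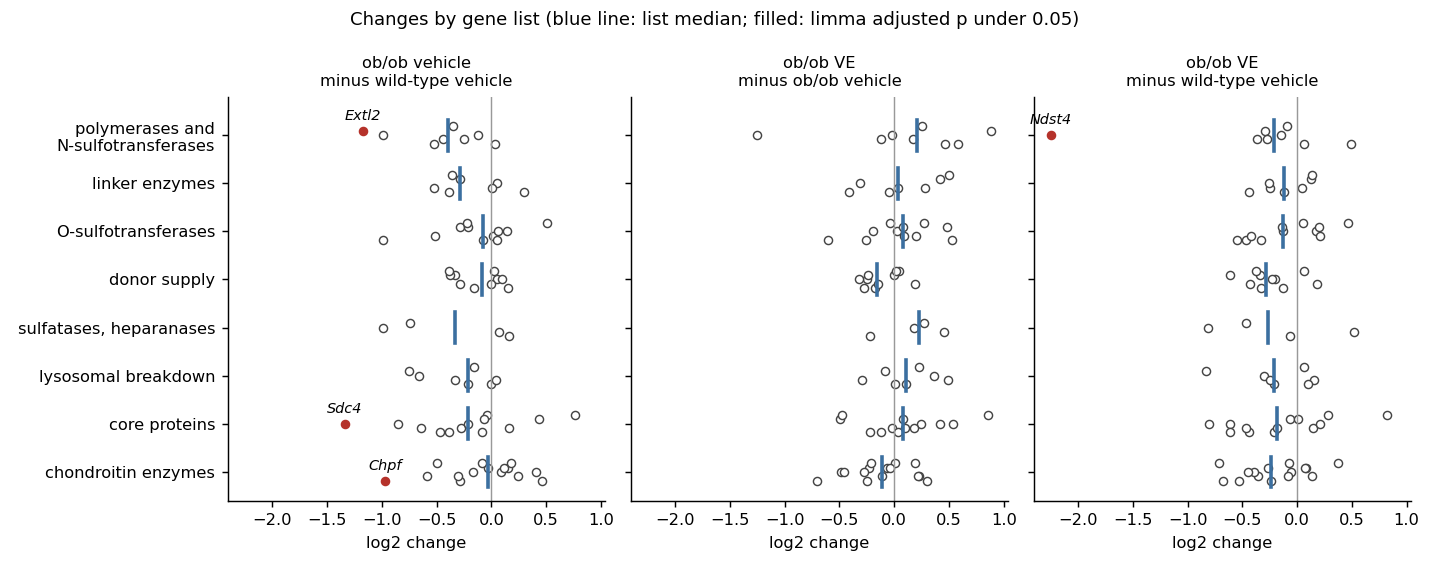
Log2 change of each measured gene of the heparan sulfate lists and the chondroitin list in the 3 comparisons; blue lines are list medians and filled points had a limma adjusted p under 0.05. Extl2, Sdc4 and Chpf are filled in ob/ob vehicle against wild type, Ndst4 in VE against wild type, and no point in VE against ob/ob vehicle.

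Marker genes of brain cells and regions moved in the same comparisons, and the samples are bulk tissue, in which fewer cells of a type and less RNA per cell cannot be told apart. Beside the fall of Extl2, markers of astrocytes were lower in ob/ob vehicle than in wild type for 8 of 8 genes (3 called), with list means of 12.03 to 12.42 in ob/ob vehicle arrays and 12.89 to 13.04 in wild-type arrays. Markers of microglia were lower for 7 of 7 (1 called), at 7.42 to 7.58 and 7.96 to 8.28, and markers of oligodendrocytes for 7 of 7 (0 called), at 10.12 to 10.51 and 10.89 to 11.61. Neuronal markers were lower for 7 of 7 (0 called), at 14.23 to 14.79 and 15.01 to 15.34. Thalamic markers were lower for 5 of 5 (1 called), at 8.80 to 9.42 in ob/ob vehicle and 9.91 to 10.35 in wild type. Choroid plexus markers were lower for 6 of 6 (2 called), at 8.66 to 9.97 and 10.10 to 11.32. Hippocampal and oligodendrocyte precursor markers were lower for 4 of 4 and 3 of 3 (0 called). Cerebellar markers were lower for 4 of 6 (1 called), and striatal markers for 2 of 4 (0 called, median change 0.035). Of all probe sets, 0.73% were called lower here. Probe sets within 0.5 log2 units of Ext1, at 11.44, had a median change of -0.31, and Snap25, Slc1a2 and Mbp were brighter, at 17.73, 17.23 and 17.58. Array SDs over all probe sets were 2.56 to 2.73 in ob/ob vehicle and 2.78 to 2.84 in wild type. The part of this spread in the marker changes was not tested. Between VE and ob/ob vehicle every VE array was the higher for Extl2, and 0 of the brain markers were called. Striatal markers were higher there for 4 of 4 genes, microglial for 6 of 7 and thalamic for 4 of 5. Their median changes were 0.81, 0.19 and 0.68. Endothelial, choroid plexus and oligodendrocyte markers were higher for 4 of 6, 4 of 6 and 4 of 7. Hippocampal markers were lower for 4 of 4 (median change -0.42), neuronal for 4 of 7 (-0.22) and oligodendrocyte precursor markers for 2 of 3 (-0.06). Astrocyte and cerebellar markers were lower for 4 of 8 and 3 of 6. Endothelial markers had list means of 7.18 to 7.55 in ob/ob vehicle arrays and 7.62 to 7.67 in wild-type arrays, with 5 of 6 genes lower (0 called). The part of these markers in the Extl2 difference was not tested.

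Beside Ndst4, the hippocampal and granule cell list (4 of its 5 genes measured: Prox1, Wfs1, Neurod6 and Tdo2) had means of 9.33 to 9.73 in VE arrays, 10.02 to 10.10 in ob/ob vehicle arrays and 10.43 to 10.69 in wild-type arrays. The 3 groups did not overlap on it, all 4 genes were lower in VE than in ob/ob vehicle and than in wild type, and 0 of them were called. Other lists were lower in VE than in wild type too, with 0 genes called: astrocyte markers for 8 of 8 genes (median change -1.04, beside -1.05 for the hippocampal list), at list means of 11.63 to 12.52 in VE arrays and 12.89 to 13.04 in wild-type arrays. Neuronal and oligodendrocyte markers were lower for 7 of 7 each (median changes -0.58 and -0.70), markers of oligodendrocyte precursors for 3 of 3 (-0.56), microglial markers for 6 of 7 (-0.62) and choroid plexus markers for 6 of 6 (-1.42). Striatal markers were higher in VE than in wild type for 4 of 4 measured genes (0 called). Their list means were 7.71 to 9.04 in VE arrays and 7.41 to 7.59 in wild-type arrays. VE array 2 had the lowest VE mean of the striatal list (7.71, against 9.04 and 8.92) and the astrocyte list (11.63, against 12.52 and 12.24). It was also lowest for neurons (13.22, against 15.03 and 14.58) and choroid plexus (8.87, against 10.09 and 9.99). For oligodendrocyte precursors VE array 3 was lowest (7.30). These median changes were not recomputed without VE array 2. The part of these markers in the Ndst4 difference was not tested.

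**Figure D4:**
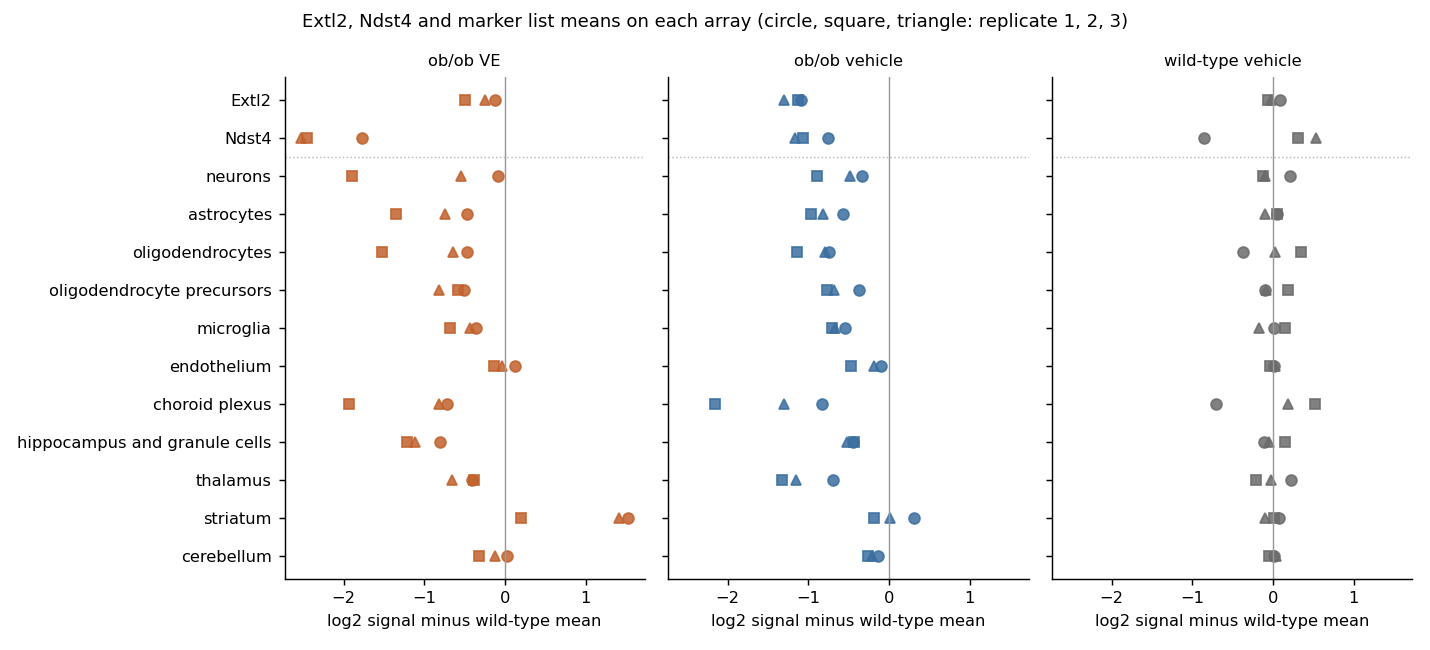
Log2 signal of Extl2 and Ndst4 and the mean log2 signal of each marker list on every array, as the difference from the wild-type mean; the panels are VE, ob/ob vehicle and wild type. For Ndst4 and the hippocampal list every VE array is below all arrays of the other panels, and for Extl2 and the thalamic list every ob/ob vehicle array is. On the other lists VE and ob/ob vehicle arrays overlap. The lowest array of the neuronal, astrocyte and oligodendrocyte lists is also in the VE panel. That of the microglial, endothelial and choroid plexus lists is in the ob/ob vehicle panel.

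The genes whose profile over the 9 arrays was closest to that of Ndst4, the enzyme gene with the smallest p of the F test over the 3 groups (adjusted p 0.0318, beside 1.07% of all probe sets), were Shisa6, St6galnac5 and Prox1. Closeness was the mean absolute difference between profiles centred on their own mean, which was 0.22, 0.24 and 0.28 log2 units for these genes and had a median of 0.83 over 19504 genes. Shisa6, of a protein that binds AMPA-type glutamate receptors, averaged 11.34 in VE brain, 12.18 in ob/ob vehicle brain and 13.36 in wild-type brain. St6galnac5, of a ganglioside sialyltransferase, averaged 12.55, 13.66 and 14.60 in the same groups. Prox1, of a transcription factor of dentate granule cells, averaged 9.88, 11.09 and 11.58, and it is also one of the 4 measured genes of the hippocampal list above.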

How the data were processed

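Brain RNA (100 ng per sample) was hybridized to Clariom S mouse arrays, 1 array per sample. Per the labels' protocols and the series' design text, the authors made the deposited log2 signals with signal space transformation and robust multi-chip analysis in Transcriptome Analysis Console 4.0.2; the genome build is not given in the sources used here. Nothing was normalized again. Gene symbols came from GEO's platform annotation, in which 19572 of 22206 probe sets had 1 symbol and 2634 had none. Groups were compared with limma 3.58.1 (R 4.3.3): a mean per group over the 9 arrays, empirical Bayes moderation, and Benjamini-Hochberg adjustment over 22206 probe sets. The 3 arrays per group limit the precision, and depth does not apply. All 8 enzyme genes with a probe set were named. Of each other pathway list the called genes in a comparison were named, or else genes from its 2 smallest p-values. Sdc1, Sdc2, Sdc3 and Gpc1 fall outside this rule. Impad1, an older symbol of Bpnt2, was dropped from the list so that the gene counts once. The members and lists were chosen with earlier results of these data known. The fit was tested on simulated data. The alternatives were other call rules, scalings, moderation, array weights, filters, blocking on replicate number, fitting only the compared groups, and leaving out each array.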

Additional observations from a re-analysis of the deposited data

How the results depend on the processing

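With 3 arrays per group, single arrays decide most calls here. Over 477 values of the 8 enzyme genes in the alternative settings, 417 kept direction and side of the threshold. Of the rest, 16 lost a call, 16 gained one and 28 changed sign, the last among uncalled values only. Several alternatives, such as the other call rules, leave the change itself as it was, so that its sign could not differ there. Of the 8 genes, 2 were called in ob/ob vehicle against wild type by the design text's rule, with array weights and with the 2 compared groups alone (count as reported 1), and 0 to 2 with 1 array left out. In VE against ob/ob vehicle (count as reported 0), 3 were called by the design text's rule and with array weights, and 1 at adjusted p under 0.1, after quantile normalization, centring or cyclic loess, and among probe sets above the median level; 0 to 1 with 1 array left out. In VE against wild type (count as reported 1), 0 were called after quantile normalization or cyclic loess and with the 2 compared groups alone, and 0 to 1 with 1 array left out. Deviations from the group mean correlated between same-numbered arrays at -0.03 to 0.33. The highest values, 0.33 and 0.22, were those of replicates 1 and 2 between VE and ob/ob vehicle. Arrays of different numbers were not compared, so whether same-numbered arrays share more than a number was not tested. With the replicate block, 0 were called in VE against wild type (Ndst4 -2.25, adjusted p 0.0711). Extl2 stayed called in ob/ob vehicle against wild type (adjusted p 0.0329), and all probe sets gave 251, 144 and 2 calls in the 3 comparisons. Leaving out an array also leaves fewer samples; the cause of the other shifts was not tested.

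Over all probe sets, calls in ob/ob vehicle against wild type (281) became 4457 by the design text's rule, 1204 at adjusted p under 0.1, 631 after quantile normalization, 614 after centring, 808 after cyclic loess, 3601 with array weights, 2626 with 2 groups alone and 0 to 2975 with 1 array left out. In VE against ob/ob vehicle (108) they became 2962, 433, 324, 71, 376, 3307, 0 and 0 to 403 in the same order, with 225 by trend and robust moderation, 180 above the median level and 0 with 1-symbol probe sets. In VE against wild type (22) they became 2707, 109, 0, 7, 0, 3286, 0 and 0 to 158, with 10 by trend and robust moderation and 49 above the median level. These rest on limma alone.

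Values near 0 changed sign. Ndst2 in ob/ob vehicle against wild type (0.03) was -0.050 after quantile normalization, -0.043 after centring, -0.027 after cyclic loess and -0.16 to 0.13 with 1 array left out. For VE relative to ob/ob vehicle, Extl1 (-0.02) was 0.058, 0.11 and 0.052 in the same order and 0.077 with array weights (-0.07 to 0.08 with 1 array left out), and Ext2 (-0.12) was 0.0067 after centring, 0.013 after cyclic loess and 0.20 with array weights (-0.29 to 0.14). Ndst3 there ran from -0.093 to 0.51, and Hpse2, of a heparanase-like protein (0.45), was -0.17 with array weights (-0.15 to 0.76). For VE relative to wild type, Extl1 (-0.14) was 0.0091 after quantile normalization, 0.012 after cyclic loess and 0.0059 with array weights (-0.27 to 0.058), Extl3 (-0.10) was 0.16 and 0.15 after quantile normalization and cyclic loess, Ndst3 ran from -0.54 to 0.068 and Ext1 from -0.13 to 0.23. Extl1 in ob/ob vehicle against wild type ran from -0.26 to 0.075. The enzyme genes' medians ran from -0.52 to -0.26, 0.03 to 0.33 and -0.30 to -0.01 in the 3 comparisons. No gene had a second probe set to try.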
